A study of Mus musculus with 15 samples.

Results

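The 9 genes described here encode brush border phosphatases and peptidases, enzymes that sit in the apical membrane of absorptive cells of the small intestine. They are Alpi, Akp3, Anpep, Dpp4, Enpep, Ace, Xpnpep2, Naaladl1 and Mep1a. They were chosen by name as enzymes of this class, with earlier results of these data known. All 9 were among the 23420 gene symbols counted in each of 15 RNA sequencing libraries, and all 9 were abundant enough to be tested. The libraries come from primary ileal organoids of C57BL/6 mice, which are epithelial cultures grown from crypts in a gel and used at passage 2. The organoids were broken open so that their lumen met the medium, and were kept for 24 h in DMEM with 0.2% BSA and a bile acid pool or vehicle. Each of the 5 groups has 3 libraries, a to c. M90 and M10 are pools modelled on mouse bile acids with 90% or 10% of them 12α-hydroxylated, and H90 and H10 are pools modelled on human bile acids with 90% or 10% of them 12α-hydroxylated. Vehicle received no pool. Which bile acids each pool held, and at what dose, is not given in the sources used here, so each comparison is between mixtures. The labels do not tie libraries a to c to different mice or cultures, so p-values measure only the spread between these libraries, which may be technical.

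Enzymes of the brush border finish the digestion of protein at the cell surface. Peptides left by pancreatic proteases are trimmed there to amino acids and short peptides, which transporters in the same membrane take up. Aminopeptidases remove residues from the amino end, carboxypeptidases from the other end, dipeptidyl peptidases release pairs of residues, and meprins cut within the chain. Intestinal alkaline phosphatase is anchored in the same membrane and removes phosphate from lipopolysaccharide and from nucleotides. Most of these genes are known to be switched on as cells leave the crypt and become enterocytes.

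Total counts ran from 11245807 to 28989526 per library. A few transcripts foreign to this epithelium divided the libraries across the groups. The liver transcript Mup20 had 0.356 to 0.583 CPM (counts per 10⁶, here of the plain library total) in 8 libraries, namely M90, M10 and H90 b and c, and 23.0 to 35.9 CPM in the other 7, namely H90 a, H10 and vehicle. Col1a1, a collagen of connective tissue, ran the other way, at 3.74 to 8.63 CPM in the 8 libraries and 0 to 0.107 CPM in the 7. These are called library set 2 (the 8) and library set 1 (the 7) below. H90 a also held 14142 CPM of the ribosomal RNA transcript Rn45s, where the remaining 14 libraries held 1739 to 3215 CPM. All other CPM values use totals scaled by TMM. The markers Epcam, Cdh1 and Krt8 together had 6581 to 9225 CPM in every library, so epithelium was present throughout. The 5 counted markers of T cells and myeloid cells summed to at most 9.80 CPM, with Cd8a at 0 in every library. The endothelial markers summed to at most 2.73 CPM, the mesenchymal ones to at most 8.47 CPM and the kidney tubule ones, with Umod at 0, to at most 0.423 CPM. Dpp4, Anpep, Enpep and Ace are also made in immune, endothelial or kidney cells, whose markers were thus near 0. The 5 liver markers, Mup20 and Alb among them, were not near 0. They summed to 56.9 to 81.2 CPM in M90, 59.6 to 69.4 in M10 and 61.1 to 175 in H90. In H10 they summed to 147 to 216 CPM and in vehicle to 137 to 165.

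Alpi and Akp3 are neighbours on chromosome 1 and similar in sequence, so reads of a shared stretch can be assigned to either gene or dropped. In GENCODE vM21 on GRCm38, Alpi lies at chr1:87098002-87101606 on the minus strand and Akp3 at chr1:87124973-87127912 on the plus strand, and all 9 members are protein-coding there. The coding sequences of the pair were 79.9% identical over the alignment. The stretches below are the pair around their longest identical run, 68 bases, and are shown because they mark where counts of the pair are uncertain. They span coding bases 90 to 207 of Alpi and 87 to 204 of Akp3, counted from the first base of the start codon, and capitals mark the 4 positions at which they differ.
Alpi coding stretch: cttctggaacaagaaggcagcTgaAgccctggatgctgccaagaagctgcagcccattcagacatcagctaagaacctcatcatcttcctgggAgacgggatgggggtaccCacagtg
Akp3 coding stretch: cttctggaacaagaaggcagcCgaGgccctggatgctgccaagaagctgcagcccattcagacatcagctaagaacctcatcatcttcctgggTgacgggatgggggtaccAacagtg
In the transcripts searched, of 2337 bases for Alpi and of 1680 bases, coding sequence only, for Akp3, 55 of 2288 windows of 50 bases in Alpi (2.40%) occurred in another gene (Akp3, Alppl2 or the pseudogene Akp-ps1). So did 35 of 1631 in Akp3 (2.15%), all of them in Alpi, and the untranslated parts of Akp3 were not examined. None of the 50-base windows in the transcripts of the other 7 members occurred in another gene. How the counting treated reads that map to several places was not given in the sources used here.

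Nearly all of the enzymes were higher than vehicle in the mouse-modelled pools, and part of them in the human-modelled pools. The test was edgeR's quasi-likelihood F test, 2-sided, with Benjamini-Hochberg adjustment over 13159 genes, and higher or lower means an adjusted p under 0.05. In M90 8 members were higher than in vehicle and Enpep was lower, beside 26.2% of all tested genes higher and 28.5% lower, and the median log2 fold change was 0.70 over the members and -0.02 over all tested genes. In M10 all 9 were higher, though Enpep stood at a log2 fold change of -0.00491 when library size was the only scaling, beside 31.2% of genes higher and 33.3% lower, with medians of 1.35 over the members and -0.03 over all. In H90 4 were higher (Alpi, Akp3, Naaladl1 and Mep1a) and Anpep and Enpep were lower, beside 11.7% of genes higher and 9.86% lower, with medians of 0.16 and -0.01. In H10 6 were higher (Alpi, Akp3, Dpp4, Xpnpep2, Naaladl1 and Mep1a) and Enpep was lower, beside 24.0% of genes higher and 24.5% lower, with medians of 0.57 and -0.00404. For the mean of the 4 pools 8 were higher and Enpep was lower, beside 27.7% of genes higher and 30.3% lower, with medians of 0.68 and -0.01.

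The 5 comparisons share the vehicle libraries. Scaled by library size alone, the median of all tested genes moved to -0.17 in M90, -0.29 in M10, -0.05 in H90 and -0.13 in H10. The higher genes then made up 31.9% of those called in M90 (47.9% with TMM), 29.5% in M10 (48.4%), 42.5% in H90 (54.3%) and 33.3% in H10 (49.5%). Under that scaling the members of H10 split into 5 higher and 2 lower, since Xpnpep2 left the higher calls and Anpep, at -0.21, joined the lower ones.

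**Figure D1:**
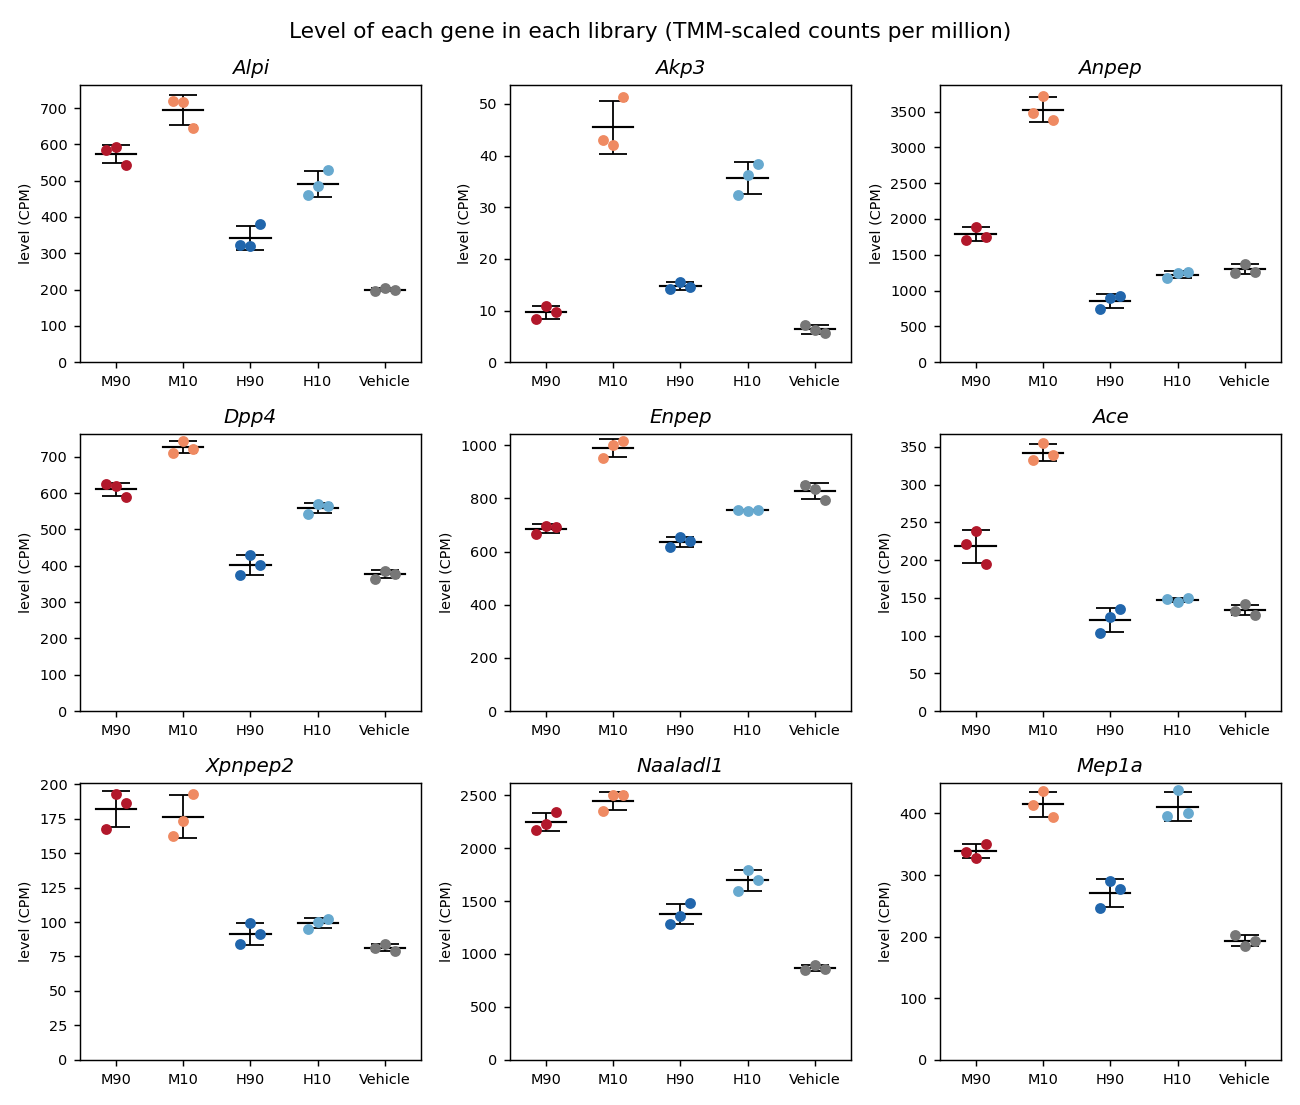
Level of each of the 9 genes in each library, in TMM-scaled CPM (y axis, from 0), for M90, M10, H90, H10 and vehicle (x axis). Points are libraries a, b and c from left to right, and bars give the mean and 1 SD of the 3 libraries. M10 is the highest group for every gene except Xpnpep2, and vehicle is the lowest for 6 genes and H90 for Anpep, Enpep and Ace.

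M10 and M90 lie in library set 2 and vehicle in set 1, so in those 2 comparisons pool and set can be told apart only through H90, which has libraries in both. With the set as a term in the model, M10 kept 9 higher members. M90 kept 6 higher and 1 lower, and Akp3 (0.52, adjusted p = 0.0908) and Anpep (0.16, adjusted p = 0.124) were no longer called. H10 and vehicle lie wholly within set 1. Within set 1 the H90 arm is the single library H90 a, the one rich in Rn45s, and its spread is assumed to be that of the other groups. Set against vehicle it gave 4 higher and 3 lower members, with Ace (-0.36) as the added one, while without H90 a Ace was at -0.05 (adjusted p = 0.638) and 6 members were higher and 2 lower. Markers of cell state differed between the groups too. The 8 enterocyte markers summed to 15940 to 16592 CPM in M90, 23905 to 24710 in M10, 10375 to 10956 in H90, 14250 to 15009 in H10 and 11275 to 12583 in vehicle. The 5 proliferation markers summed to 204 to 217 CPM in M90, 114 to 123 in M10, 573 to 665 in H90, 208 to 218 in H10 and 887 to 898 in vehicle. The 5 stem cell markers summed to 41.7 to 48.0 CPM in M90, 56.9 to 60.6 in M10, 105 to 117 in H90, 44.0 to 52.9 in H10 and 220 to 241 in vehicle. Smoc2 made up most of the M10 sum, at a mean of 53.8 CPM, and the means of Lgr5, Olfm4, Ascl2 and Axin2 were lower in M10 than in M90. The 4 goblet cell markers summed to at least 1544 CPM in each of the 12 pool libraries and to at most 1020 in vehicle. Of the goblet cell markers 3 of 4 were higher in each pool, while Clca1 was lower in M90 (-0.74) and in H90 (-0.70). Paneth cell markers summed to 125 to 204 CPM in the pool libraries and 63.3 to 89.1 in vehicle, with 4 of 4 higher in each pool. Enteroendocrine markers summed to 689 to 966 CPM in the pool libraries and 388 to 500 in vehicle, with 3 or 4 of 4 higher in each pool, and tuft cell markers to 90.6 to 138 CPM and 71.1 to 78.6, with 2 to 4 of 4 higher. The part of these cell types in the results for the 9 genes was not tested. In bulk RNA, more cells of a type and more RNA of a gene per cell cannot be told apart.

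Alpi, the intestinal alkaline phosphatase, was higher than vehicle in each of the 4 pools. It had 584, 592 and 544 CPM in M90 libraries and 720, 718 and 646 CPM in M10 libraries. It had 323, 321 and 380 CPM in H90, 460, 486 and 530 CPM in H10 and 197, 205 and 198 CPM in vehicle. No pair of groups overlapped, and the order from high to low was M10, M90, H10, H90 and vehicle. Over vehicle the log2 fold change was 1.52 (SE 0.0597, adjusted p = 5.95e-19) in M90 and 1.80 (SE 0.0600, adjusted p = 5.54e-21) in M10, by edgeR. It was 0.77 (SE 0.0594, adjusted p = 3.38e-11) in H90 and 1.30 (SE 0.0595, adjusted p = 3.25e-17) in H10.

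Akp3, which in mouse is the alkaline phosphatase found mainly in the duodenum, was the least abundant member and the one with the widest range, its highest group mean being 7.16 times its lowest. It had 8.29, 10.8 and 9.80 CPM in M90 libraries and 43.0, 42.1 and 51.4 CPM in M10 libraries, from raw counts of 165, 249 and 229 in M90 and 1123, 986 and 1009 in M10. It had 14.2, 15.6 and 14.6 CPM in H90, 32.3, 36.3 and 38.4 CPM in H10 and 7.22, 6.22 and 5.63 CPM in vehicle. The groups were again all apart, but in another order than for Alpi: both 10% pools stood above both 90% pools, and M90 stood only above vehicle. M10 was 7.19-fold above vehicle, a log2 fold change of 2.85 (SE 0.131, adjusted p = 1.17e-20), and H10 was 5.65-fold above it, at 2.5 (SE 0.131, adjusted p = 1.86e-18). H90 reached 1.23 (SE 0.136, adjusted p = 6.31e-09). M90 reached 0.61 (SE 0.138, adjusted p = 0.000276), and this was not called with library set as a term.

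The balance of the pair therefore differed between the pools. There were 54.7 to 70.5 Alpi reads per Akp3 read in M90 libraries, 12.6 to 17.0 in M10, 20.6 to 26.1 in H90, 13.4 to 14.2 in H10 and 27.2 to 35.2 in vehicle. M90 was thus the group with the most Alpi per Akp3 and H10 and M10, which overlapped, the groups with the least. Whether reads of one of the pair were counted to the other was not tested. Alppl2, a further alkaline phosphatase at the same locus that is best known from embryo and germ cells, stayed low, at 1.76, 2.22 and 1.75 CPM in M90 and 0.306, 0.555 and 0 CPM in M10. It had 2.27, 3.85 and 2.79 CPM in H90, 0.700, 1.92 and 1.65 CPM in H10 and 2.91, 2.63 and 2.92 CPM in vehicle. It was lower in M10 than in vehicle, at a log2 fold change of -3.22 (SE 0.551, adjusted p = 3.58e-06) by edgeR, from raw counts of 8, 13 and 0 in M10 and 50, 77 and 68 in vehicle. Alpl, the alkaline phosphatase of liver, bone and kidney, had at most 1.52 CPM in any library and was called in no comparison, the largest log2 fold change over vehicle being 1.52 (95% interval -0.27 to 3.32, adjusted p = 0.159) in H10.

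**Figure D2:**
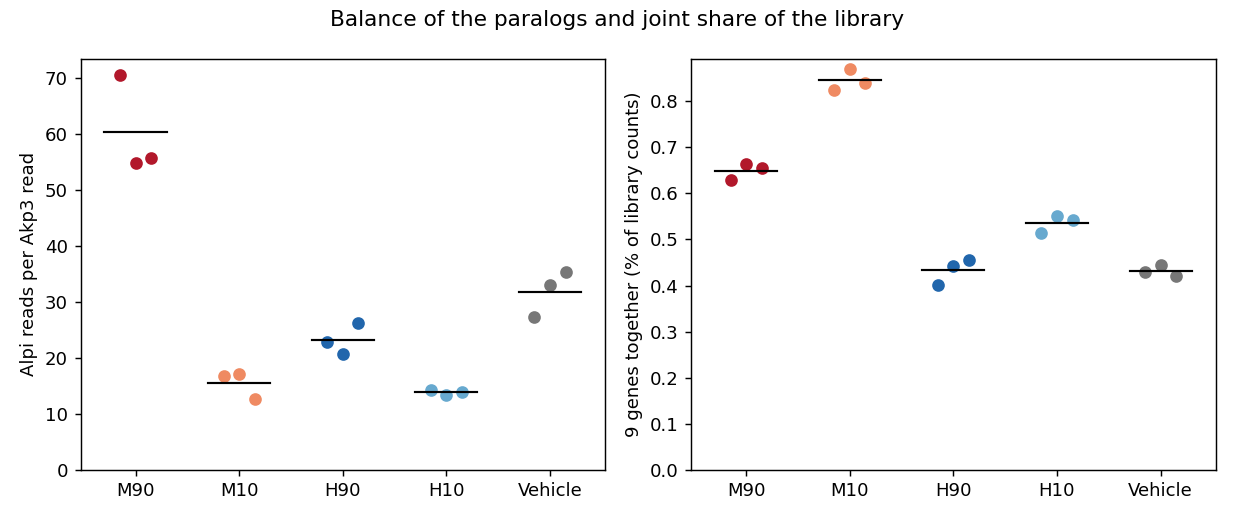
Left, Alpi reads per Akp3 read in each library (y axis, a ratio of raw counts). Right, the 9 genes' joint share of each library's counts (y axis, percent). Groups are M90, M10, H90, H10 and vehicle (x axis), points are libraries and bars are means of 3. The ratio runs from 54.7 to 70.5 in M90 and from 12.6 to 17.0 in M10, and the joint share from 0.628% to 0.665% in M90 and from 0.825% to 0.870% in M10.

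Anpep (chr7:79821803-79861059, minus strand), aminopeptidase N, which removes neutral residues from the amino end of peptides, separated mouse-modelled from human-modelled pools. Its levels were 1712, 1895 and 1749 CPM in M90 and 3479, 3723 and 3382 CPM in M10. They were 743, 898 and 929 CPM in H90, 1170, 1239 and 1261 CPM in H10 and 1245, 1376 and 1266 CPM in vehicle. M10 and M90 stood above vehicle, H90 below it, and H10 overlapped vehicle. In M10 the log2 fold change over vehicle was 1.45 (SE 0.0700, adjusted p = 3.58e-12) by edgeR and in M90 0.46 (SE 0.0689, adjusted p = 1.98e-05), which was not called with library set as a term. In H90 it was -0.60 (SE 0.0693, adjusted p = 5.29e-06) and in H10 -0.08 (95% interval -0.23 to 0.06, adjusted p = 0.354).

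Enpep (chr3:129269175-129332720, minus strand), aminopeptidase A, which removes acidic residues from the amino end and also converts angiotensin II, was the member that fell below vehicle in 3 of the 4 pools. It had 666, 697 and 693 CPM in M90 and 953, 1001 and 1016 CPM in M10. It had 616, 655 and 639 CPM in H90, 755, 754 and 755 CPM in H10 and 852, 836 and 794 CPM in vehicle. The groups were all apart, with M10 alone above vehicle. Its highest group mean was 1.55 times its lowest, the narrowest range of the 9 genes. The log2 fold change over vehicle was -0.27 (SE 0.0408, adjusted p = 5.71e-07) in M90, 0.26 (SE 0.0407, adjusted p = 7.77e-07) in M10, -0.38 (SE 0.0409, adjusted p = 3.59e-09) in H90 and -0.13 (SE 0.0407, adjusted p = 0.00683) in H10, by edgeR. The rise in M10 depended on the scaling, as given above.

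Xpnpep2 (chrX:48108725-48136981, plus strand), the membrane-bound aminopeptidase P, which frees a residue that precedes proline, was higher in both mouse-modelled pools than in every other group. It had 168, 193 and 187 CPM in M90 and 162, 174 and 193 CPM in M10, which overlapped. It had 83.7, 99.3 and 91.1 CPM in H90, 95.1, 100 and 102 CPM in H10 and 81.4, 83.8 and 79.3 CPM in vehicle. H90 overlapped both H10 and vehicle. Over vehicle the log2 fold change was 1.16 (SE 0.0664, adjusted p = 1.91e-17) in M90, 1.11 (SE 0.0664, adjusted p = 3.03e-17) in M10 and 0.28 (SE 0.0670, adjusted p = 0.000535) in H10, by edgeR. In H90 it was 0.16 (95% interval 0.03 to 0.30, adjusted p = 0.0841), and 0.22 with adjusted p = 0.0236 without H90 a. With library set as a term the H90 value was 0.04 (adjusted p = 0.877). In library set 1 alone, where H90 is the library H90 a, it was 0.05.

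Dpp4 (chr2:62330073-62412231, minus strand), which clips dipeptides that end in proline or alanine and so inactivates incretin hormones, was higher in 3 pools. Its levels were 624, 618 and 590 CPM in M90 and 711, 744 and 722 CPM in M10. They were 375, 430 and 401 CPM in H90, 543, 569 and 564 CPM in H10 and 365, 387 and 378 CPM in vehicle. Among these groups only H90 and vehicle overlapped. The log2 fold change over vehicle was 0.70 (SE 0.0452, adjusted p = 6.18e-16) in M90, 0.95 (SE 0.0453, adjusted p = 3.68e-20) in M10 and 0.57 (SE 0.0452, adjusted p = 2.29e-13) in H10, by edgeR. In H90 it was 0.09 (95% interval 0.00132 to 0.19, adjusted p = 0.146), 0.14 (adjusted p = 0.0300) without H90 a, and -0.00518 with library set as a term.

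Ace (chr11:105967945-105989964, plus strand), angiotensin-converting enzyme, which releases dipeptides from the carboxyl end, ran close to Anpep. It had 221, 239 and 195 CPM in M90 and 333, 355 and 339 CPM in M10. It had 104, 125 and 135 CPM in H90, 148, 145 and 149 CPM in H10 and 133, 142 and 128 CPM in vehicle. M10 and M90 stood clear of the other 3 groups, which lay within 104 to 149 CPM, with H10 just above vehicle and H90 overlapping it. The log2 fold change over vehicle was 0.70 (SE 0.0732, adjusted p = 9.93e-09) in M90 and 1.35 (SE 0.0734, adjusted p = 1.49e-14) in M10, by edgeR, and with library set as a term the M90 value fell to 0.38 and stayed called. In H10 it was 0.14 (95% interval -0.02 to 0.29, adjusted p = 0.136). In H90 it was -0.15 (95% interval -0.31 to -0.000276, adjusted p = 0.153), and Ace was called lower there without H90 c (-0.24), in library set 1 alone (-0.36) and with library set as a term (-0.37). Without H90 a, the library on which the set 1 value rests, it was -0.05 (adjusted p = 0.638). Exons of Dpp4 share 232 bases and exons of Ace 295 bases with an antisense gene that is not counted in the files (Gm13561 and Gm11651), and whether strand was used in counting was not given in the sources used here.

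Naaladl1 (chr19:6105782-6115792, plus strand), a relative of glutamate carboxypeptidase II, was the most abundant member per length and was higher than vehicle in each pool. It had 2175, 2231 and 2344 CPM in M90 and 2346, 2497 and 2497 CPM in M10. It had 1286, 1360 and 1477 CPM in H90, 1591, 1793 and 1698 CPM in H10 and 851, 898 and 856 CPM in vehicle. All groups were apart, in the same order as for Alpi. Over vehicle the log2 fold change was 1.37 (SE 0.0474, adjusted p = 1.53e-23) in M90, 1.49 (SE 0.0476, adjusted p = 4.96e-25) in M10, 0.66 (SE 0.0469, adjusted p = 1.2e-13) in H90 and 0.96 (SE 0.0470, adjusted p = 5.34e-19) in H10, by edgeR.

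Mep1a (chr17:43474324-43502812, minus strand) encodes the alpha subunit of meprin, a metalloprotease that cuts within peptide chains. It had 338, 328 and 350 CPM in M90 and 413, 436 and 395 CPM in M10. It had 246, 291 and 277 CPM in H90, 395, 438 and 401 CPM in H10 and 203, 185 and 193 CPM in vehicle. M10 and H10 overlapped at the top and vehicle was lowest. The log2 fold change over vehicle was 0.81 (SE 0.0542, adjusted p = 2.75e-15) in M90, 1.10 (SE 0.0542, adjusted p = 1.78e-19) in M10, 0.49 (SE 0.0544, adjusted p = 8.75e-09) in H90 and 1.09 (SE 0.0543, adjusted p = 8.16e-19) in H10, by edgeR. Mep1b, the beta subunit with which it pairs, averaged 491 ± 29.8 CPM in M90, 562 ± 29.9 in M10, 382 ± 11.8 in H90, 474 ± 22.6 in H10 and 305 ± 13.1 in vehicle (SD, n = 3 each). It was also higher than vehicle in each pool, with log2 fold changes of 0.69 in M90, 0.88 in M10, 0.33 in H90 and 0.64 in H10. There were 0.639 to 0.738 Mep1a reads per Mep1b read in M90, 0.662 to 0.794 in M10, 0.665 to 0.738 in H90, 0.838 to 0.885 in H10 and 0.587 to 0.698 in vehicle, so H10 stood above the other groups.

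**Figure D3:**
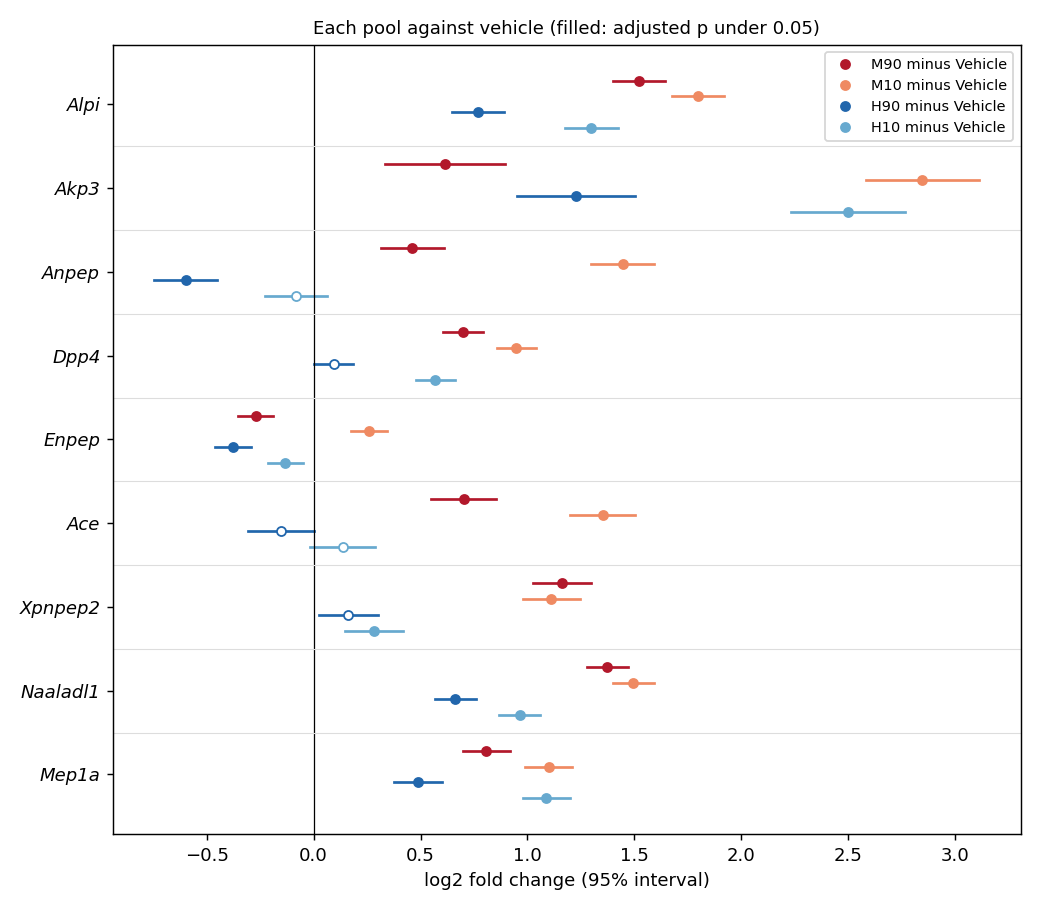
Log2 fold change of each gene over vehicle (x axis) with its 95% interval, for M90, M10, H90 and H10 from top to bottom within each gene (rows). Filled points have an adjusted p under 0.05 and open points do not. Alpi, Akp3, Naaladl1 and Mep1a lie right of 0 in all 4 pools, Enpep lies left of 0 in 3, and Anpep lies at -0.60 in H90 and 1.45 in M10.

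The share of 12α-hydroxylated bile acids went with lower levels in both species models. Of the 9 members 8 were lower in M90 than in M10 and none was higher, beside 20.0% of genes lower and 21.3% higher. The members lower in M90 were all but Xpnpep2, whose log2 fold change was 0.05 (95% interval -0.08 to 0.18, adjusted p = 0.578). Likewise 8 members were lower in H90 than in H10 and none was higher, beside 18.4% of genes lower and 18.2% higher, and again the exception was Xpnpep2, at -0.12 (95% interval -0.26 to 0.02, adjusted p = 0.166). The median log2 fold change was -0.29 over the members and 0.04 over all tested genes between the mouse-modelled pools, and -0.48 and 0.01 between the human-modelled ones. The enterocyte marker sum was likewise lower in M90 than in M10 and in H90 than in H10, by the ranges given above. M90 and M10 both lie in library set 2. Scaled by library size alone, the members of M90 minus M10 split into 1 higher (Xpnpep2, 0.16) and 7 lower, and the higher genes made up 69.7% of those called (51.6% with TMM). The same figure for H90 minus H10 was 66.9% (49.8%). In library set 1 H90 is the single library H90 a, and against H10 all 9 members were lower there, Xpnpep2 included (-0.25). That added call rests on H90 a, since Xpnpep2 stood at -0.06 (adjusted p = 0.580) without it.

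Akp3 showed the largest of these differences. M90 averaged 9.63 ± 1.27 CPM and M10 45.5 ± 5.11 CPM (SD, n = 3 each), a log2 fold change of -2.23 (SE 0.125, adjusted p = 5.22e-17) by edgeR. H90 averaged 14.8 ± 0.731 CPM and H10 35.7 ± 3.08 CPM, a log2 fold change of -1.27 (SE 0.123, adjusted p = 1.1e-10). Anpep followed between the mouse-modelled pools, with 1785 ± 96.7 CPM in M90 and 3528 ± 176 CPM in M10, a log2 fold change of -0.98 (SE 0.0692, adjusted p = 2.99e-09). Between the human-modelled pools Anpep had 857 ± 99.8 CPM in H90 and 1223 ± 47.2 CPM in H10. The log2 fold change there was -0.52 (SE 0.0693, adjusted p = 1.22e-05) by edgeR. It moved to -0.42 without H90 a and to -0.72 with library set as a term, and stayed called.

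The remaining called members stood as follows. Between M90 and M10 the log2 fold changes were -0.65 (SE 0.0719, adjusted p = 5.12e-08) for Ace, -0.53 (SE 0.0408, adjusted p = 2.54e-13) for Enpep and -0.29 (SE 0.0532, adjusted p = 2.47e-05) for Mep1a, by edgeR. They were -0.28 (SE 0.0576, adjusted p = 0.000262) for Alpi, -0.25 (SE 0.0448, adjusted p = 1.9e-05) for Dpp4 and -0.12 (SE 0.0464, adjusted p = 0.0346) for Naaladl1. The Naaladl1 call rested on a small difference and ended without M10 b, M10 c, M90 a or M90 b (adjusted p = 0.104 to 0.144), and with library size (-0.00818) or upper-quartile scaling (-0.04). Library size scaling also moved the values of Alpi, Dpp4 and Mep1a towards 0 by over 1.5 times, with the calls kept. Between H90 and H10 they were -0.60 (SE 0.0539, adjusted p = 2.57e-11) for Mep1a, -0.53 (SE 0.0585, adjusted p = 1.9e-08) for Alpi and -0.48 (SE 0.0453, adjusted p = 7.6e-11) for Dpp4. They were -0.30 (SE 0.0466, adjusted p = 2.23e-06) for Naaladl1, -0.29 (SE 0.0748, adjusted p = 0.00313) for Ace and -0.25 (SE 0.0409, adjusted p = 6.97e-06) for Enpep. The Ace value moved with the libraries. It was -0.19 without H90 a and -0.51 with library set as a term, both still called, and -0.51 in set 1 alone. The Mep1a value moved as well, to -0.53 without H90 a and to -0.74 with library set as a term, and stayed called.

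Most members were higher in the mouse-modelled than in the human-modelled pool of the same share. In M90 8 members were higher than in H90 and Akp3 was lower, beside 19.2% of genes higher and 19.5% lower, with medians of 0.71 over the members and -0.01 over all tested genes. In M10 8 were higher than in H10 and none was lower, beside 18.2% of genes higher and 18.1% lower, with medians of 0.50 and -0.02. The exception in M10 was Mep1a, which stood at 415 ± 20.8 CPM in M10 and 411 ± 23.0 CPM in H10, a log2 fold change of 0.01 (95% interval -0.10 to 0.12, adjusted p = 0.888). Scaled by library size alone, the higher genes made up 30.1% of those called in M90 minus H90 (49.6% with TMM) and 25.1% in M10 minus H10 (50.1%). M90 and the libraries H90 b and c share library set 2, and within it 7 members were higher and Akp3 was lower in M90. M10 and H10 lie in different sets and can be told apart from the set only through H90.

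Anpep gave the largest of these differences at both shares. In M10 minus H10 the log2 fold change was 1.53 (SE 0.0702, adjusted p = 1.29e-11) for Anpep and 1.22 (SE 0.0732, adjusted p = 1.22e-12) for Ace, by edgeR. In M90 minus H90 it was 1.06 (SE 0.0697, adjusted p = 1.34e-09) for Anpep and 0.86 (SE 0.0743, adjusted p = 8.73e-10) for Ace. Xpnpep2 came next at the 90% share, at 1.0 (SE 0.0667, adjusted p = 7.28e-15), and stood at 0.83 (SE 0.0658, adjusted p = 1.02e-12) at the 10% share. The M90 minus H90 values of the other higher members were 0.75 for Alpi, 0.71 for Naaladl1, 0.60 for Dpp4, 0.32 for Mep1a and 0.11 for Enpep. The Enpep call (adjusted p = 0.0356) ended with library set as a term, within set 2, without H90 a, M90 b or M90 c, in a fit of M90 and H90 alone and with upper-quartile scaling, and its sign turned with library size as the only scaling (-0.00614). Besides Akp3, the other higher members of M10 minus H10 had values of 0.53 for Naaladl1, 0.50 for Alpi, 0.39 for Enpep and 0.38 for Dpp4, which fell to 0.23 with library set as a term and stayed called.

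Akp3 was the member whose direction differed between the shares. It was lower in M90 than in H90, at -0.61 (SE 0.131, adjusted p = 0.000225), and higher in M10 than in H10, at 0.35 (SE 0.114, adjusted p = 0.0153), by edgeR. The second call ended with library set as a term (0.26), with library size (0.22) or upper-quartile scaling (0.28), without M10 c (0.25) and without H10 a (0.28).

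**Figure D4:**
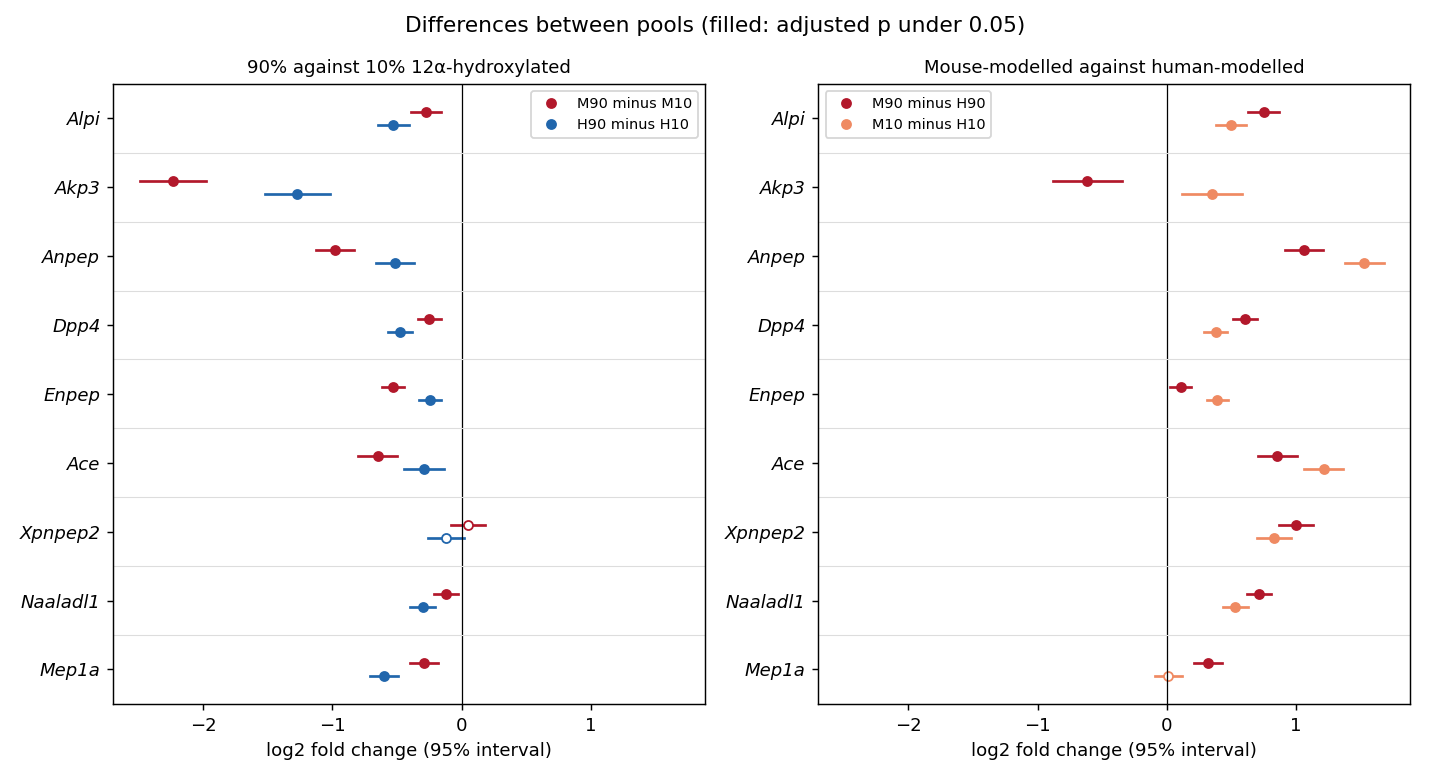
Log2 fold change of each gene (rows) with its 95% interval (x axis). The left panel sets 90% against 10% 12α-hydroxylated pools (M90 minus M10 above H90 minus H10) and the right panel sets mouse-modelled against human-modelled pools (M90 minus H90 above M10 minus H10). Filled points have an adjusted p under 0.05. In the left panel every point lies left of 0 except Xpnpep2 in M90 minus M10 (0.05), and in the right panel Akp3 lies at -0.61 in M90 minus H90 and 0.35 in M10 minus H10.

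Whether the share acted alike in both species models was tested by the interaction, (M90 minus M10) minus (H90 minus H10). It was called for 7 members, 3 above 0 and 4 below, beside 7.85% of genes above and 6.92% below 0. Below 0, where the 90% pool was further under the 10% pool in the mouse model, lay Akp3 at -0.96 (SE 0.174, adjusted p = 0.000108), Anpep at -0.47 (SE 0.0974, adjusted p = 0.00321), Ace at -0.36 (SE 0.104, adjusted p = 0.0192) and Enpep at -0.28 (SE 0.0577, adjusted p = 0.000501). Above 0, where the gap was wider in the human model, lay Mep1a at 0.31 (SE 0.0756, adjusted p = 0.00404), Alpi at 0.25 (SE 0.0820, adjusted p = 0.0356) and Dpp4 at 0.23 (SE 0.0636, adjusted p = 0.0118). Xpnpep2 was at 0.17 (95% interval -0.02 to 0.36, adjusted p = 0.240) and Naaladl1 at 0.18 (95% interval 0.05 to 0.31, adjusted p = 0.0600). Without H90 a, 5 were called, 1 above 0 and 4 below, Alpi (0.22) and Dpp4 (0.18) being lost. With library set as a term the Ace interaction was -0.14 and no longer called, and that of Anpep was -0.26 and still called. The Naaladl1 interaction was called under 10 alternatives, at 0.18 to 0.28, among them library set as a term (0.28, adjusted p = 0.0136), limma-voom, and library size or upper-quartile scaling.

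Per kilobase of exon the levels of the members differed widely. Over all 15 libraries Naaladl1 averaged 693 CPM per kb, Anpep 420, Alpi 197, Enpep 166, Mep1a 94.4, Dpp4 84.6, Ace 36.4, Xpnpep2 25.9 and Akp3 10.7. In M10 Naaladl1 had 982 ± 34.9 CPM per kb and Anpep 853 ± 42.4, while in vehicle Naaladl1 had 349 ± 10.3 and Anpep 313 ± 17.0 (SD, n = 3 each). Together the 9 genes took 0.650% ± 0.0191 of all counts in M90, 0.845% ± 0.0225 in M10, 0.434% ± 0.0283 in H90, 0.536% ± 0.0195 in H10 and 0.432% ± 0.0118 in vehicle (SD, n = 3 each). The H90 share, 0.402% to 0.456%, overlapped that of vehicle, 0.421% to 0.444%, while Alpi, Akp3, Naaladl1 and Mep1a were higher and Anpep and Enpep lower in H90.

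Across the 15 libraries the members did not form a single profile. Correlations are given as a description, since the libraries fall into 5 groups that are partly tied to library set, and differ in depth. The Pearson correlation of log2 CPM was highest for Alpi with Naaladl1 (0.983) and for Anpep with Ace (0.972). It was lowest for Enpep with Naaladl1 (0.184) and with Alpi (0.211), and Alpi and Akp3 correlated at 0.708. Among 9946 other genes with a mean of at least 5 CPM, those most like a member by the same measure were Creb3l3 for Naaladl1 (0.995), Por for Alpi (0.994), Ifnlr1 for Dpp4 (0.993) and Slc7a11 for Mep1a (0.992). They were Apoa1 for Ace (0.990), Slc15a1 for Anpep (0.986), Gal3st2 for Xpnpep2 (0.979), Wars for Akp3 (0.969) and Fam13b for Enpep (0.941). The next were Slc25a4 for Naaladl1 (0.992), Lama5 for Alpi (0.993), Ogdh for Dpp4 (0.992), Abcb1a for Mep1a (0.985), Cobl for Anpep (0.976), Fth1 for Xpnpep2 (0.969), Mthfd2 for Akp3 (0.962) and Snap29 for Enpep (0.941). Slc15a1, the transporter of di- and tripeptides, was also the next for Ace (0.982).

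Other hydrolases of the brush border, Mep1b and Alppl2 among them, were more often higher than lower in M90, M10 and H10. Of 17 tested on a list of 19 (Tmprss15 and Naalad2 had no count in any library), 8 were higher and none lower in M90 than in vehicle, 12 higher and 2 lower in M10, 4 higher and 3 lower in H90, and 10 higher and none lower in H10. Beside them stand the shares of all tested genes, 26.2% higher and 28.5% lower in M90, 31.2% and 33.3% in M10, 11.7% and 9.86% in H90, and 24.0% and 24.5% in H10. The median log2 fold changes of the hydrolases were 0.41 in M90, 1.02 in M10, 0.07 in H90 and 0.64 in H10. Plb1, the brush border phospholipase B, had 69.6, 89.8 and 81.7 CPM in M90 and 90.6, 89.4 and 111 CPM in M10. It had 22.7, 25.8 and 25.8 CPM in H90, 69.4, 79.2 and 77.8 CPM in H10 and 3.09, 4.17 and 3.27 CPM in vehicle, so each pool stood far above vehicle. Its log2 fold change over vehicle was 4.76 (SE 0.123, adjusted p = 2.31e-26) in M10 and 2.78 (SE 0.132, adjusted p = 1.24e-17) in H90, by edgeR. Ggt1, the gamma-glutamyltransferase that opens glutathione, rose by 2.01 in M90, 1.83 in M10, 1.05 in H90 and 1.19 in H10 on the log2 scale. Between pools, 9 of the 17 were lower and 4 higher in M90 than in M10 (20.0% and 21.3% of all genes), and 9 were lower and none higher in H90 than in H10 (18.4% and 18.2%).

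Peptidases inside the cell, which finish the cleavage of peptides after uptake, went in both directions, as did all tested genes by the shares just given. Of 18 tested, 7 were higher and 7 lower in M90 than in vehicle, 7 higher and 4 lower in M10, 1 higher and none lower in H90, and 6 higher and 5 lower in H10, with medians of -0.07 in M90, 0.10 in M10, -0.02 in H90 and -0.10 in H10. Pepd, which cleaves dipeptides that end in proline, averaged 206 ± 2.56 CPM in M90, 237 ± 16 in M10, 148 ± 5.45 in H90, 177 ± 6.44 in H10 and 138 ± 2.64 in vehicle (SD, n = 3 each). Its log2 fold change over vehicle was 0.77 (SE 0.0521, adjusted p = 8.93e-16) in M10 by edgeR. The leucine aminopeptidase Lap3 (0.65) and the dipeptidase Cndp2 (0.66) were also higher in M10, while Rnpep, an aminopeptidase for basic residues, was lower at -0.63 (SE 0.0583, adjusted p = 6.64e-12).

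Genes listed for di- and tripeptide and amino acid uptake were mostly higher in the mouse-modelled pools and in H10. The list is wider than carriers of the brush border, and not all of its genes carry peptides or amino acids. Of 12 tested, 10 were higher and 1 lower than vehicle in M90 and likewise in M10, 4 higher and 3 lower in H90, and 7 higher and 1 lower in H10, with medians of 0.27 in M90, 0.81 in M10, -0.02 in H90 and 0.21 in H10. The H90 counts are close to even, and the shares of all tested genes given above apply here as well. Slc15a1 had 108, 125 and 104 CPM in M90 and 242, 245 and 232 CPM in M10. It had 45.6, 58.3 and 62.0 CPM in H90, 88.5, 83.2 and 80.0 CPM in H10 and 71.7, 71.1 and 74.7 CPM in vehicle. It was higher than vehicle in M10 at 1.73 (SE 0.0785, adjusted p = 2.57e-18) and lower in H90 at -0.40 (SE 0.0819, adjusted p = 0.000434), by edgeR, the directions that Anpep took in those pools. Slc6a19, the carrier of neutral amino acids, was higher in M10 (1.36) and M90 (0.34) and was not called in H90 (-0.13, adjusted p = 0.377) or H10 (-0.14, adjusted p = 0.262). Slc6a20a, a carrier of proline, was higher in all 4 pools, most in M90 (1.14), and Slc3a1, a subunit of the cystine carrier, was higher in M10 (0.80) and lower in H90 (-0.24).

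Among 17 transcription factors of enterocyte genes, 10 were higher and 4 lower than vehicle in M90 and in M10, 3 higher and 3 lower in H90, and 11 higher and 4 lower in H10, with medians of 0.18 in M90, 0.25 in M10, -0.01 in H90 and 0.21 in H10. Of all tested genes, 26.2% were higher and 28.5% lower in M90, and 31.2% and 33.3% in M10. The shares were 11.7% and 9.86% in H90, and 24.0% and 24.5% in H10. Creb3l3, a membrane-bound factor of lipid metabolism, had 483, 510 and 497 CPM in M90 and 582, 613 and 637 CPM in M10. It had 207, 201 and 233 CPM in H90, 281, 304 and 308 CPM in H10 and 71.0, 81.2 and 75.2 CPM in vehicle, in the same order of groups as Alpi and Naaladl1. Its log2 fold change was 3.01 (SE 0.0574, adjusted p = 6.91e-32) in M10 and 1.49 (SE 0.0561, adjusted p = 9.96e-22) in H90, by edgeR. Ppara, the nuclear receptor of fatty acid oxidation, was higher in all 4 pools (1.0 in M90, 0.64 in M10, 0.60 in H90 and 0.78 in H10). Cdx1, a homeobox factor of the crypt and lower villus, was lower in all 4 (-0.80 in M90, -0.99 in M10, -0.24 in H90 and -1.01 in H10), as was Klf5, a factor of proliferating crypt cells (-0.70, -0.43, -0.50 and -0.54 in the same order).

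**Figure D5:**
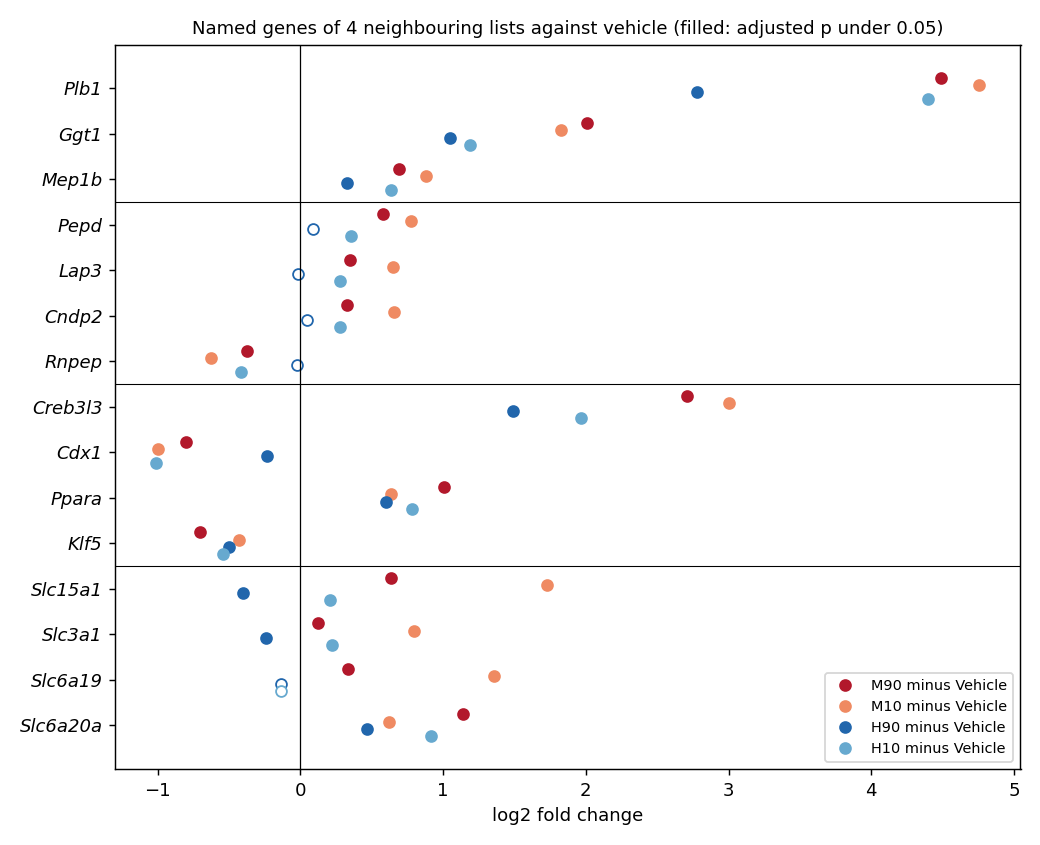
Log2 fold change over vehicle (x axis) of up to 4 genes with the smallest p for any group difference in each of 4 lists (rows, set off by lines). From top to bottom these are other brush border hydrolases, intracellular peptidases, transcription factors and genes listed for uptake. Points are M90, M10, H90 and H10 from top to bottom within a gene, and open points have an adjusted p of 0.05 or more. Plb1 reaches 4.76 in M10 and 2.78 in H90, while Rnpep, Cdx1 and Klf5 lie left of 0 in every pool.

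The promoters of Alpi and Akp3 are printed because this neighbouring pair took different orders of groups. Each runs from 250 bases before to 50 bases after the annotated start (RefSeq, GRCm38.p6), and capitals mark a match to a searched motif.
Alpi promoter, chr1:87101557-87101856, minus strand: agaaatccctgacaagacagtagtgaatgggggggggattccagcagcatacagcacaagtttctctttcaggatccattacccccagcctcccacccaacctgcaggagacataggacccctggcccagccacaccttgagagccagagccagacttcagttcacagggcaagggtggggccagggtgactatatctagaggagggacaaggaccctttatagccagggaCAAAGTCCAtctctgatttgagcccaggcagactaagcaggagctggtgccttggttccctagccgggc
Akp3 promoter, chr1:87124704-87125003, plus strand: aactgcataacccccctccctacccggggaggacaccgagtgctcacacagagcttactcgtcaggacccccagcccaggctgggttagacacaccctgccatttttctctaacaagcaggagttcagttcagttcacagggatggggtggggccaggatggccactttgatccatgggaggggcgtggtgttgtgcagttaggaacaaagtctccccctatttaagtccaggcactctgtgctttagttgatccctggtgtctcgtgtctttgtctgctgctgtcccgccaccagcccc
The motifs, chosen after the values were seen and searched on both strands, were CAAAGTCCA for HNF4, GTTAAT for HNF1, TTTATG for CDX, TGATGNAA for ATF4, and for FXR and PPAR 2 copies of AGGTCA with 1 base of any kind between them. The copies point towards each other in the FXR motif and the same way in the PPAR motif, so each FXR or PPAR match holds AGGTCA. The Alpi promoter held the HNF4 motif at position -19 relative to the start, as did 156 of all 32851 promoters (0.475%). The Akp3 promoter held none of the 6. Of the 8 members with a promoter in the table, the only other match was a CDX motif in Mep1a at position 13, a motif present in 11.9% of promoters. The HNF1 motif was present in 7.10% of promoters, the ATF4 motif in 3.97%, the PPAR motif in 0.0396% and the FXR motif in 0.00910%.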

How the data were processed

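RNA of 15 organoid libraries was sequenced after poly-A selection and TruSeq preparation, per the labels' protocols. Named in the submitters' processing notes are the build mm10 (GRCm38), featureCounts 1.5.0-p3, STAR 2.5.2b and bcl2fastq 2.17. The authors deposited raw counts per gene symbol, with no normalization. The annotation used, the strand setting and the handling of reads with several hits are not given in the sources used here. After filterByExpr 13159 genes remained, and TMM-scaled totals entered 1 edgeR quasi-likelihood model with 5 group means (robust, 10 residual degrees of freedom, common dispersion 0.00776). Adjusted p is Benjamini-Hochberg over all tested genes of a contrast, with a threshold of 0.05, and intervals and SEs are from the fit. CPM values use TMM-scaled totals, except for Mup20, Col1a1 and Rn45s, and are divided by union exon length of GENCODE vM21 where genes are compared. Genes named beside the 9 members were up to 4 per list with the smallest p for any difference between groups, the 2 genes most correlated with each member, and the paralogs Alppl2, Alpl and Mep1b. A gene that this rule picks is not reported here. Mup20, Col1a1 and Rn45s are named beside the rule, after their values had been looked at. Members and lists were chosen with earlier results of these data known. Library set 1 has more than 10 CPM of Mup20. Alternatives were scaling by library size, RLE or upper quartile, limma-voom, DESeq2, 2 other filters, shrinkage without the robust option, fits of only the groups compared, a block for replicate letter, each library left out, library set as a term and fits within 1 set, a split known from those earlier results. The pipeline was tested on simulated data for H10 minus Vehicle only, with few changed genes and a common dispersion. Scaling under changes as wide as those here was not tested by it. Versions were DESeq2 1.42.0, edgeR 4.0.16 and limma 3.58.1 under R 4.3.3, with pandas 2.3.3 and matplotlib 3.10.9 under python 3.11.15.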

Additional observations from a re-analysis of the deposited data

Results flagged for a closer look

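For 7 of the 9 genes the difference between the 90% and the 10% pool was not the same in the mouse model as in the human model, by edgeR's test of the interaction, (M90 minus M10) minus (H90 minus H10). The log2 values were -0.96 for Akp3, -0.47 for Anpep, -0.36 for Ace and -0.28 for Enpep, and 0.31 for Mep1a, 0.25 for Alpi and 0.23 for Dpp4. For Akp3 this set -2.23 in the mouse model against -1.27 in the human model, and for Mep1a -0.29 against -0.60. The calls of Akp3, Anpep, Enpep and Mep1a stayed under every alternative that was run, though with library set as a term the Anpep value was -0.26 (adjusted p = 0.0219). Naaladl1, at 0.18, was called under 10 alternatives. That of Alpi ended with a block for replicate letter (adjusted p = 0.0644) and without any 1 of H10 b, H10 c, H90 a, H90 b, M10 c, M90 a and M90 b, with adjusted p of 0.0515 to 0.124 and values of 0.20 to 0.27. That of Ace ended with library set as a term (adjusted p = 0.419) and without H10 b, H90 b, H90 c or M10 b (0.0504 to 0.0576), and that of Dpp4 without H90 a (0.0519). H90 is split between the library sets, and the part of that split in these values was not tested beyond the term for set.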

How the results depend on the processing

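Counts of members called in the 10 comparisons stayed within 1.5 times under all 186 alternative counts. Examples are 9 in M10 minus Vehicle against 8 to 9, 6 in H90 minus Vehicle against 6 to 8, and 7 in the interaction against 5 to 8. With main counts of 6 to 9 out of 9 genes, no rise could break that limit. The counts also ignore direction. H10 minus Vehicle kept 7 with library size as the only scaling, though 6 higher and 1 lower became 5 and 2. Of 999 values of single members under other alternatives, 36 changed sign or side of the threshold, as did 33 of 675 without 1 library. Values that changed sign were Enpep in M10 minus Vehicle (-0.00491) and in M90 minus H90 (-0.00614) with library size as the only scaling, Dpp4 in H90 minus Vehicle (-0.00518) with library set as a term, and Mep1a in M10 minus H10 with library set as a term (-0.19), library size (-0.12) and upper-quartile scaling (-0.0589). Without 1 library, Mep1a in M10 minus H10 ran from -0.0261 to 0.0559 and Xpnpep2 in M90 minus M10 from -0.00626 to 0.12. With library set as a term the calls of Akp3 (0.52) and Anpep (0.16) in M90 minus Vehicle and of Anpep in the mean of the pools (0.11) ended, and DESeq2 and RLE scaling changed no call. Residual correlations between libraries of a shared letter were low (-0.0237 to 0.0829 over 30 pairs), so letters were not used as pairs. Each library was also compared with the libraries of other groups, averaged by letter a, b and c. For 11 of 15 libraries the letter with the highest mean residual correlation was the library's own. A weak sign of pairing by letter was thus present, and the main model left it out. With a replicate block the counts moved by at most 1 (7 in place of 6 in H90 minus Vehicle, through Xpnpep2 at 0.16), the Alpi interaction (0.25) lost its call and the Naaladl1 interaction (0.18) gained one, as it did under 9 others. Depth limits Alpl most, with 0 to 21 counts in a library, then Alppl2 with 0 to 77, and among the 9 genes Akp3 with 124 to 1123.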
